A study of Mus musculus with 33 samples.

Results

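The 10 genes described here are the MHC class II and dendritic cell genes Cd74, H2-Aa, H2-Ab1, H2-Eb1, Ciita, H2-DMa, H2-DMb1, Xcr1, Clec9a and Zbtb46. They were taken by symbol, through their Ensembl gene IDs, from the 54752 features of a bulk RNA sequencing count table, and all 10 were found once. All 10 also passed the filter on low counts, which kept 18198 genes. The table covered 33 libraries from 11 populations sorted from mouse bone marrow, with 3 libraries, described as biological replicates, in each. Of these populations 4 came from mice with mid-grade sepsis, induced by cecal ligation and puncture (CLP), an operation that lets gut bacteria into the abdomen, and killed on day 3: Ly6C- granulocyte-monocyte progenitors (Ly6C- GMP), the neutrophil progenitors proNeu1 and proNeu2, and the preNeu. The other 7 came from wild-type control mice: the same 4 neutrophil-path populations, the common monocyte progenitor (cMoP), the population labelled TpMo, and the Ly6Chi monocyte. The septic mice were sorted with the gates used for the controls. The labels give no strain, age, sex or sham operation for either arm.

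MHC class II molecules are pairs of an alpha and a beta chain that show peptides from ingested proteins to CD4+ T cells. In the mouse the alpha chain of H2-A is encoded by H2-Aa and its beta chain by H2-Ab1, and H2-Eb1 encodes the beta chain of H2-E. Cd74 encodes the invariant chain, which fills the groove of newly made class II molecules and guides them to endosomes, where H2-DM, a dimer of the H2-DMa and H2-DMb1 products, exchanges the remnant of the invariant chain for peptide. Ciita encodes the coactivator that class II transcription needs; it binds no DNA itself and is held at class II promoters by the RFX complex, CREB-family factors and NF-Y. Xcr1, a chemokine receptor, and Clec9a, a lectin receptor for actin exposed by dead cells, mark type 1 conventional dendritic cells, which take up dead cells and present their antigens. Zbtb46 encodes a zinc finger repressor of the conventional dendritic lineage.

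The members are spread over the genome of the GRCm38 build, with coordinates as in the count table. Cd74 (ENSMUSG00000024610.14) spans chr18:60803848-60812646 on the plus strand and Ciita (ENSMUSG00000022504.10) chr16:10480059-10528418 on the plus strand. Xcr1 (ENSMUSG00000060509.4) spans chr9:123852315-123862029 on the minus strand, Clec9a (ENSMUSG00000046080.17) chr6:129408862-129424763 on the plus strand and Zbtb46 (ENSMUSG00000027583.13) chr2:181387762-181459426 on the minus strand. Clec9a shares 184 exon bases with Clec1b on the same strand, and Clec1b was at most 3.52 CPM (counts per megacount of the library total) in any library.

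The classical class II genes and the DM genes lie in the MHC on chromosome 17, on the same build. H2-Ab1 (ENSMUSG00000073421.5) spans chr17:34263209-34269418 on the plus strand. Its partner H2-Aa (ENSMUSG00000036594.14) spans chr17:34282744-34287827 on the minus strand, and H2-Eb1 (ENSMUSG00000060586.10) chr17:34305877-34316199 on the plus strand. H2-DMa (ENSMUSG00000037649.9) spans chr17:34135182-34139101 and H2-DMb1 (ENSMUSG00000079547.3) chr17:34153072-34160230, both on the plus strand. Of the 1604 possible 75-base stretches of H2-DMb1 transcripts, 254 (15.8%) also occur in its neighbour H2-DMb2, so counts of these genes may be partly shared.

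The proximal promoters of class II genes carry a conserved series of boxes that ends in an NF-Y-type box. The 100-base stretches of the 3 promoters below are shown because the genes for factors that bind these boxes were measured in the same libraries; they are RefSeq sequence of build GRCm38.p6, written 5′ to 3′ along the gene. Capitals mark AAC and, 25 or 26 bases later, TGATTGG, the letters that a search of both strands found in them.
H2-Aa (chr17:34287828-34287927, minus strand, 104 to 5 bases before the RefSeq start): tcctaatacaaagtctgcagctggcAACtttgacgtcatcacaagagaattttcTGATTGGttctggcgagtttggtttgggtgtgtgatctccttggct
H2-Eb1 (chr17:34305753-34305852, plus strand, 114 to 15 bases before the RefSeq start): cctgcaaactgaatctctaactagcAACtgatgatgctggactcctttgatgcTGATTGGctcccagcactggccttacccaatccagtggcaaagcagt
H2-DMb2 (chr17:34145103-34145202, plus strand, 146 to 47 bases before the RefSeq start): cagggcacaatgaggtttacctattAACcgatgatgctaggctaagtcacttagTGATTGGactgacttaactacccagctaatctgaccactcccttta

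The spacing of the pair was read from these promoters and is a description of them. TGATTGG lies 50 bases before the start in H2-Aa, 61 in H2-Eb1 and 92 in H2-DMb2. Over all 32851 promoter windows of 300 bases, 83 (0.253%) held AAC followed after 25 or 26 bases by TGATTGG, whereas 2568 (7.82%) held TGATTGG and 12289 (37.4%) held the shorter ATTGG that it contains. The pair was also found in the windows of H2-DMb1 and of H2-Oa, a subunit of the DM inhibitor H2-O. The H2-DMb2 window lies 1942 bases from the start of the counted gene. The pair was not found in the windows of Xcr1 and Clec9a, nor in that of H2-Ob, the other H2-O subunit, which held TGATTGG alone. The windows of H2-DMa and Zbtb46 lie away from the start of the counted gene (by 9664 and 12350 bases for the H2-DMa windows and 35038 for Zbtb46) and did not hold the pair. Cd74, H2-Ab1 and Ciita have no entry in the promoter table.

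Libraries held between 5.52 and 39.98 Mcounts (megacounts). The 5 shallow ones, with at most 6.78 Mcounts, were replicate 1 of septic proNeu1, replicate 3 of septic preNeu, replicate 1 of control proNeu1, replicate 3 of control preNeu and replicate 2 of the Ly6Chi monocyte, and the others held at least 17.24 Mcounts. All 9 cMoP, TpMo and Ly6Chi monocyte libraries had Ddx3y between 68.8 and 98.6 CPM and Xist at most 1.40 CPM, whereas the other 24 had Ddx3y at most 0.725 CPM and Xist between 153 and 587 CPM. A comparison of cMoP with Ly6C- GMP is therefore also one between libraries with and without Y-linked transcripts, and these cannot be told apart. Ly6C- GMP carried surface marker genes of a granulocyte-monocyte progenitor, with Kit at 243 to 384 CPM in the septic and 411 to 566 CPM in the control libraries. Cd34 stood at 182 to 273 CPM in septic and 467 to 489 CPM in control. Control proNeu1 had Kit at 382 to 419 CPM and cMoP had Cd34 at 322 to 363 CPM. Neither gene thus set septic Ly6C- GMP apart from all other populations. Ly6c2, which encodes a Ly6C protein, stood at 143 to 167 CPM in septic and 118 to 181 CPM in control, below every other population. Fcgr3, another GMP marker gene, stood at 289 to 341 CPM in septic and 537 to 599 CPM in control Ly6C- GMP. Control proNeu1 had more Fcgr3, at 759 to 891 CPM. The control Ly6C- GMP libraries also carried basophil and mast cell genes, which summed to 8253 to 12227 CPM, and eosinophil genes, which summed to 4646 to 8600 CPM. Monocyte marker genes summed to 17944 to 19502 CPM in the Ly6Chi monocyte and neutrophil marker genes to 80928 to 98398 CPM in control proNeu1, proNeu2 and preNeu. In septic Ly6C- GMP the neutrophil list summed to 23973 to 27809 CPM, against 42821 to 52267 CPM in control Ly6C- GMP.

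The 4 classical class II genes had their highest level in control Ly6C- GMP. The second highest was in the Ly6Chi monocyte. H2-Ab1 stood at 217, 165 and 73.4 CPM in the 3 Ly6Chi monocyte libraries and at 1633, 1306 and 1192 CPM in the 3 control Ly6C- GMP libraries. In the other 27 libraries it lay between 3.71 and 16.5 CPM. The Ly6Chi monocyte, control Ly6C- GMP and the remaining populations thus formed 3 ranges that did not overlap.
Cd74 stood at 446, 403 and 110 CPM in the Ly6Chi monocyte and at 1542, 1220 and 1059 CPM in control Ly6C- GMP. Control proNeu1 came next, with 56.3, 66.7 and 37.4 CPM, and TpMo had 11.4, 13.5 and 18.9 CPM. Cd74 therefore had one more clear step than its partners, since proNeu1 stood above all libraries other than those of control Ly6C- GMP and the Ly6Chi monocyte. H2-Aa stood at 109, 99.1 and 21.3 CPM in the Ly6Chi monocyte and at 420, 280 and 246 CPM in control Ly6C- GMP, with a mean of at most 2.50 CPM in each other population. H2-Eb1 stood at 60.7, 59.3 and 14.8 CPM in the Ly6Chi monocyte, at 207, 148 and 118 CPM in control Ly6C- GMP, and between 0.0889 and 3.83 CPM elsewhere. Ciita, the coactivator gene, followed the same order at lower levels: 22.7, 13.3 and 7.25 CPM in the Ly6Chi monocyte, 29.5, 31.6 and 29.5 CPM in control Ly6C- GMP, and at most 3.16 CPM in any other library. Ciita exons overlap 329 bases of the antisense gene Dexi, which was at most 4.31 CPM in any library.

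The DM genes, whose products load peptide, were not arranged in this way. Along the monocyte path H2-DMa stood at 151, 147 and 138 CPM in control Ly6C- GMP, at 183, 197 and 168 CPM in cMoP, at 204, 201 and 246 CPM in TpMo and at 252, 295 and 286 CPM in the Ly6Chi monocyte. None of these 4 ranges overlapped, and each stage lay above the one before it. Below them H2-DMa averaged 62.6 ± 11.1 CPM in control proNeu1, 33 ± 2.66 CPM in control proNeu2 and 7.77 ± 3.30 CPM in control preNeu (SD, n = 3 each). H2-DMb1 stood at 136, 136 and 107 CPM in control Ly6C- GMP, 89.6, 91.1 and 103 CPM in cMoP, 107, 110 and 118 CPM in TpMo and 141, 139 and 137 CPM in the Ly6Chi monocyte. Its Ly6C- GMP and TpMo ranges overlapped, and the Ly6Chi monocyte lay above both. The lowest DM value of the monocyte path, 89.6 CPM, was above that in each library of proNeu1, proNeu2 and preNeu in either arm.

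The dendritic members were found mainly in control Ly6C- GMP. The mean of Xcr1 was at most 1.49 CPM in every other population, and Xcr1 stood at 35.8, 27.8 and 16.5 CPM in control Ly6C- GMP. Clec9a stood at 1.22, 4.28 and 3.51 CPM in TpMo and at 24.8, 19.9 and 19.7 CPM in control Ly6C- GMP. It had no count in septic Ly6C- GMP or in proNeu1 of either arm. Zbtb46 stood at 19.2, 13.8 and 6.73 CPM in control Ly6C- GMP. It was less confined than the other dendritic members, with 3.24, 6.57 and 2.88 CPM in control proNeu1 and 2.24, 1.45 and 2.70 CPM in control proNeu2. The set thus held genes of 3 arrangements: the DM genes, the classical class II genes with Ciita, and the dendritic members, which were high beside the class II genes in control Ly6C- GMP but low in the Ly6Chi monocyte.

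**Figure D1:**
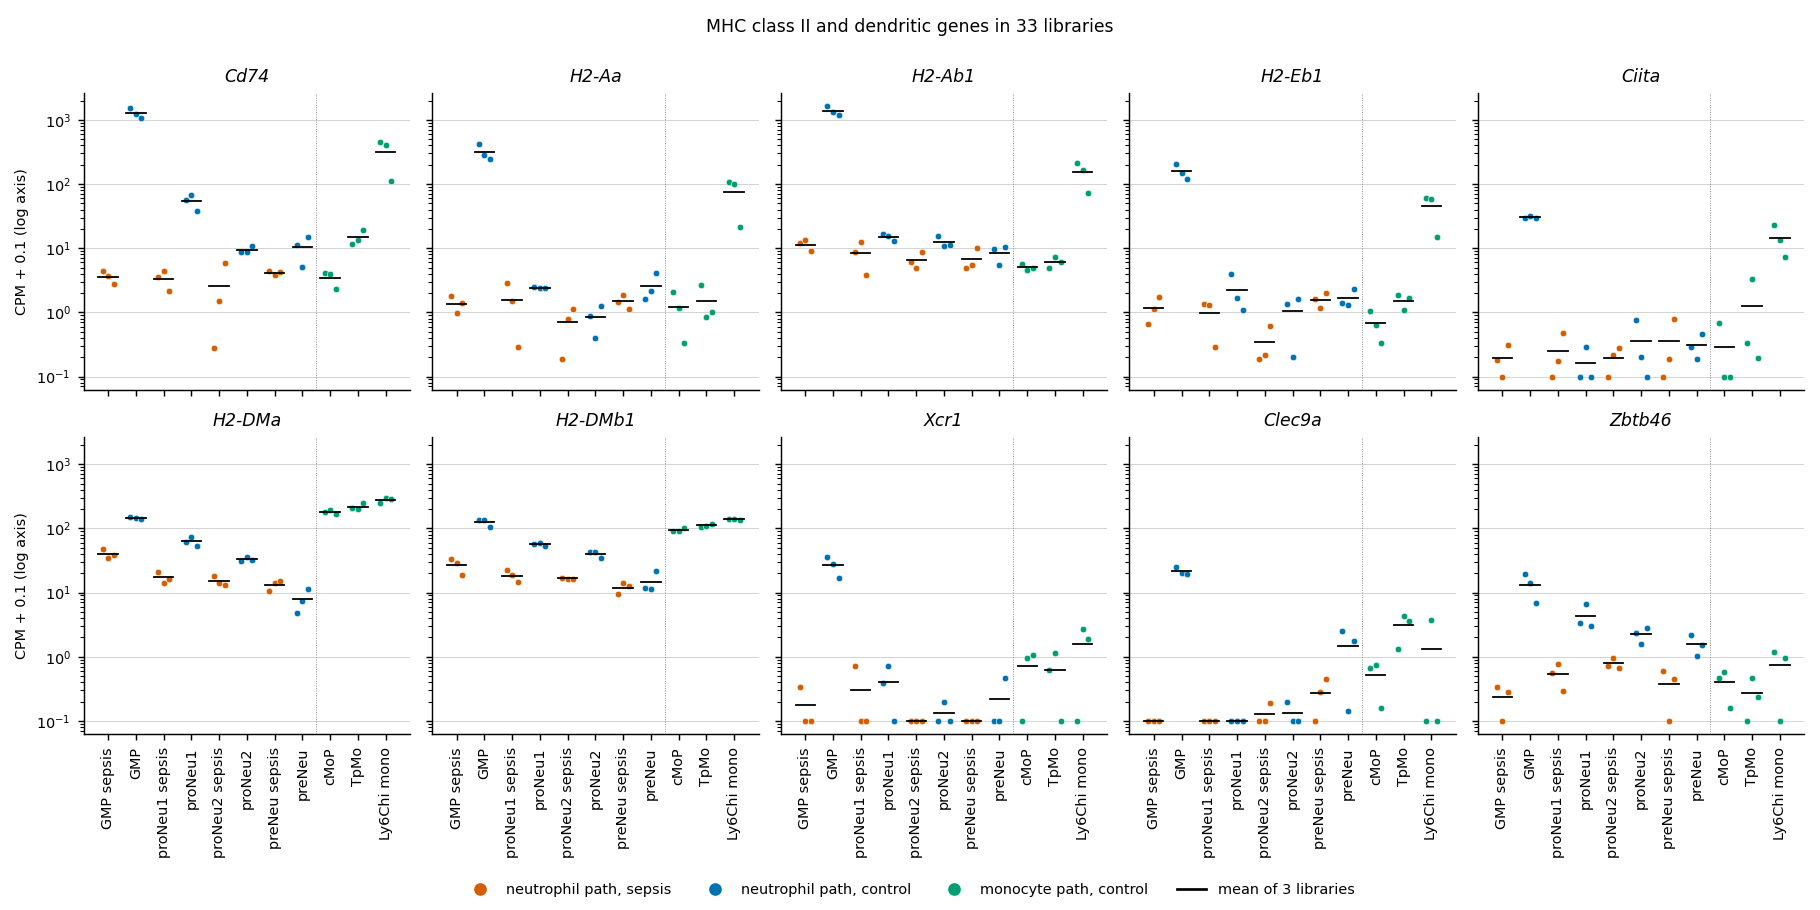
CPM + 0.1 (log axis) of the 10 genes in all 33 libraries, 1 panel a gene; points are libraries, bars are group means, and septic populations stand left of their controls. The classical class II genes and Ciita peak in control Ly6C- GMP and again in the Ly6Chi monocyte, the DM genes stay high along the monocyte path, and Xcr1 and Clec9a are highest in control Ly6C- GMP.

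Per kilobase of exon, which allows genes to be compared, Cd74 led in the Ly6Chi monocyte, with a mean of 227 CPM per kb. H2-DMa was second there by the mean, with 169 CPM per kb. H2-DMb1 had 93.6, H2-Ab1 92.7, H2-Aa 40.8 and H2-Eb1 38.0 CPM per kb. This order of means did not hold in each library. In Ly6Chi monocyte replicate 3 Cd74, at 78.0 CPM per kb, lay below H2-DMa at 174 and H2-DMb1 at 92.4. H2-Ab1 had 132, 101 and 44.8 CPM per kb in replicates 1 to 3, and H2-DMb1 95.1, 93.3 and 92.4. In control Ly6C- GMP Cd74 and H2-Ab1 led, with means of 903 and 841 CPM per kb. H2-Aa had 168, H2-Eb1 133, H2-DMa 88.5 and H2-DMb1 85.1 CPM per kb in control Ly6C- GMP, and Clec9a, Xcr1, Ciita and Zbtb46 had 6.52, 6, 3.17 and 1.55 CPM per kb. The Ly6Chi monocyte libraries also carried Y-linked transcripts and those of Ly6C- GMP did not, so population and the presence of these transcripts cannot be told apart in this comparison either.

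Of 7 such ratios per kilobase, 6 did not overlap between the Ly6Chi monocyte and control Ly6C- GMP. The ratios share genes, H2-Ab1 and Cd74 among them, so they are not separate results. How often ratios of other gene pairs do not overlap was not computed. H2-Ab1 over H2-DMa was 0.861, 0.562 and 0.258 in the Ly6Chi monocyte, against 10.8, 8.90 and 8.68 in control Ly6C- GMP. H2-DMa over H2-DMb1 was 1.62, 1.92 and 1.88 in the Ly6Chi monocyte, against 1.00, 0.977 and 1.17 in control Ly6C- GMP. H2-Eb1 over H2-Ab1 averaged 0.387 ± 0.109 in the Ly6Chi monocyte and 0.156 ± 0.0191 in control Ly6C- GMP (SD, n = 3 each). H2-Ab1, the A beta chain gene, was thus the most reduced of the class II chains relative to the others in the monocyte. Its ratio to H2-Aa averaged 2.71 ± 1.08 in the Ly6Chi monocyte and 5.11 ± 0.585 in control Ly6C- GMP, and the ratio of Cd74 to H2-Ab1 averaged 2.32 ± 0.551 in the Ly6Chi monocyte and 1.07 ± 0.0347 in control Ly6C- GMP (SD, n = 3 each). Cd74 over Ciita averaged 147 ± 53.0 in the Ly6Chi monocyte and 286 ± 59.5 in control Ly6C- GMP. An exact two-sided permutation test gave p = 0.1 for each of these 6 ratios, the smallest p that 3 against 3 libraries allow (0.117 adjusted over the 7 ratios). Cd74 over H2-Aa, at 5.90 ± 0.820 in the Ly6Chi monocyte and 5.46 ± 0.509 in control Ly6C- GMP, overlapped (exact permutation p = 0.6).

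**Figure D2:**
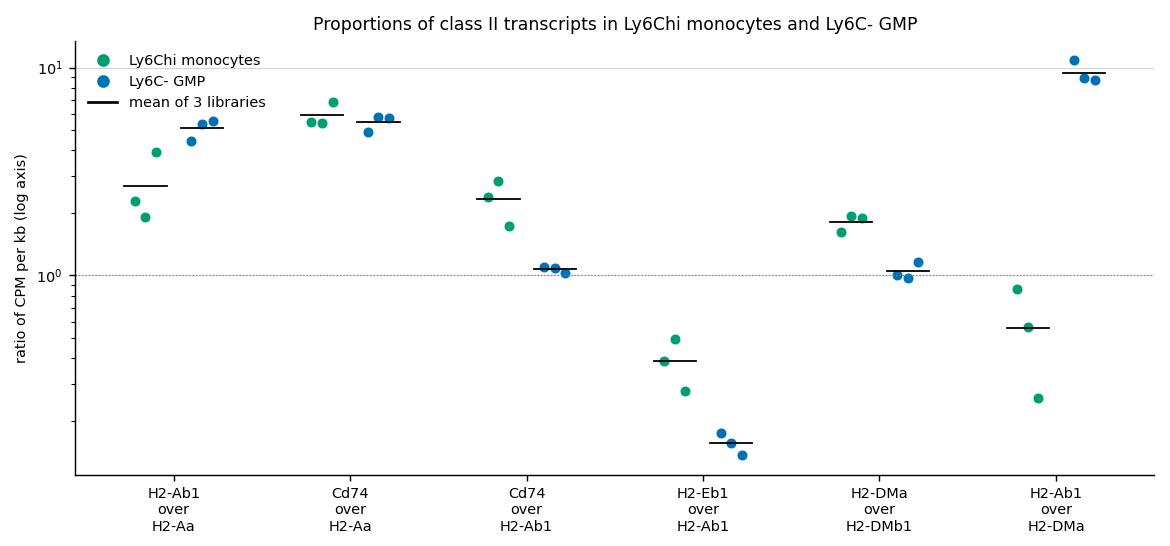
Ratios of CPM per kilobase between class II transcripts (log axis) in the 3 Ly6Chi monocyte libraries (left of each pair) and the 3 control Ly6C- GMP libraries; points are libraries and bars are means. H2-Ab1 over H2-DMa lies between 0.258 and 0.861 in the monocyte and between 8.68 and 10.8 in Ly6C- GMP, and Cd74 over H2-Aa is the ratio whose ranges overlap.

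Libraries of 1 population also differed from each other across the genes. In control Ly6C- GMP, replicate 1 was highest for 8 of the 10 genes and replicate 3 lowest for 9. In the Ly6Chi monocyte, replicate 3 was lowest for 6 of the 10, with 110 CPM of Cd74 against 446 and 403 CPM in the other two, while its H2-DMa, at 286 CPM, lay between theirs. Flt3, a cytokine receptor of dendritic progenitors, was also low in replicate 3 (60.5, 80.6 and 19.3 CPM in replicates 1 to 3), as was Irf4 (13, 32.2 and 3.62 CPM), whereas Cd209a was not (42.5, 60.3 and 53.0 CPM). Genes outside the dendritic lists differed in replicate 3 too. In replicates 1 to 3 the monocyte gene Csf1r stood at 2077, 2090 and 1323 CPM and Ctss, a cathepsin gene, at 2441, 2397 and 1699 CPM. Replicate 3 was highest for Ly6c2 (1806, 1657 and 2079 CPM) and for the neutrophil gene Elane (25.4, 21.5 and 61.3 CPM). In the labels its library number is out of sequence with the others. The part of these differences in the class II levels was not tested.

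Along the neutrophil path the class II chains, Ciita, Xcr1 and Clec9a fell at the first step, Cd74 and the DM genes fell at more than one, and Zbtb46 was called at none. In control proNeu1 against control Ly6C- GMP, edgeR's quasi-likelihood test with Benjamini-Hochberg adjustment over all 18198 genes called 9 of the 10 genes lower and none higher, where 6.04% of all genes were called and 2.45% were called lower. The median log2 fold change of the 10 was -6.30, against 0 over all genes. The CPM ranges of the 2 populations did not overlap for any of the 10, nor for 23.1% of all genes (15.6% lower in proNeu1). H2-Ab1 averaged 14.8 ± 1.93 CPM in proNeu1 and 1377 ± 229 CPM in Ly6C- GMP, a ratio of 93.0 (log2 fold change -6.43 ± 0.41 SE, adjusted p = 2.27e-11). H2-Aa averaged 2.31 ± 0.0420 CPM in proNeu1 and 315 ± 92.4 CPM in Ly6C- GMP (-6.96 ± 0.74, adjusted p = 1.65e-07), and H2-Eb1 2.12 ± 1.51 CPM in proNeu1 and 157 ± 45.1 CPM in Ly6C- GMP (-6.26 ± 0.74, adjusted p = 1.01e-06). Their lowest means lay elsewhere, at 4.91 CPM in cMoP for H2-Ab1 and at 0.609 CPM for H2-Aa and 0.243 CPM for H2-Eb1 in septic proNeu2. Cd74 fell less, to 53.5 ± 14.9 CPM in proNeu1, against 1273 ± 246 CPM in Ly6C- GMP (-4.45 ± 0.55, adjusted p = 2.43e-06). Ciita averaged 0.0633 ± 0.110 CPM in proNeu1 and 30.2 ± 1.21 CPM in Ly6C- GMP (-8.45 ± 1.67, adjusted p = 0.00133).

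The DM genes fell by a small factor at the same step. H2-DMa averaged 62.6 ± 11.1 CPM in proNeu1 and 145 ± 6.88 CPM in Ly6C- GMP (log2 fold change -1.09 ± 0.19, adjusted p = 0.000238), and H2-DMb1 56.4 ± 3.71 CPM in proNeu1 and 126 ± 17.0 CPM in Ly6C- GMP (-1.04 ± 0.19, adjusted p = 0.000476). Clec9a had 0 counts in the 3 proNeu1 libraries, which makes it at least 523-fold lower than in Ly6C- GMP with a floor of 3 counts over the group (adjusted p = 0.00341). The dendritic genes were less evenly resolved than the class II chains. Xcr1 had 0.295, 0.607 and 0 CPM in proNeu1, against 35.8, 27.8 and 16.5 CPM in Ly6C- GMP (-6.35 ± 1.88, adjusted p = 0.0451), a call lost in 9 alternatives, each omission of 1 library among them (adjusted p 0.0616 to 0.163). Zbtb46 averaged 4.23 ± 2.03 CPM in proNeu1 and 13.2 ± 6.23 CPM in Ly6C- GMP and did not pass the test (-1.50 ± 0.95, adjusted p = 0.43).

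Past proNeu1, Cd74 and the DM genes still fell. Between proNeu2 and proNeu1, 2 of the 10 genes were called, both lower, against 3.05% of all genes called and 1.48% called lower. Cd74 averaged 9.30 ± 1.14 CPM in proNeu2 and 53.5 ± 14.9 CPM in proNeu1 (log2 fold change -2.41 ± 0.52, adjusted p = 0.00973), a call lost without proNeu2 replicate 2 (adjusted p = 0.0586). H2-DMa averaged 33 ± 2.66 CPM in proNeu2 and 62.6 ± 11.1 CPM in proNeu1 (-0.82 ± 0.19, adjusted p = 0.0143), a call lost without proNeu1 replicate 2 (adjusted p = 0.102), without proNeu2 replicate 1 (0.0562) and with only the libraries compared (0.0531). Between preNeu and proNeu2, a step at which 27.8% of all genes were called (13.1% higher and 14.7% lower), both DM genes were lower and Clec9a was higher. H2-DMa averaged 7.77 ± 3.30 CPM in preNeu and 33 ± 2.66 CPM in proNeu2 (-1.95 ± 0.20, adjusted p = 2.18e-08), and H2-DMb1 14.6 ± 5.70 CPM in preNeu and 39.9 ± 4.99 CPM in proNeu2 (-1.29 ± 0.20, adjusted p = 7.82e-06). Clec9a rested on 62 counts in preNeu and 2 in proNeu2, a ratio of 38.3 with a 95% counting interval of 10.2 to 323 (adjusted p = 0.0333). Its ranges overlapped, since preNeu replicate 2 had 0.0441 CPM, and the call was lost without preNeu replicate 1 (adjusted p = 0.142) and without proNeu2 replicate 2 (0.109) or 3 (0.107).

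In septic mice the corresponding steps carried few calls in these genes. Septic Ly6C- GMP already had low means of H2-Aa (1.27 CPM), H2-Eb1 (1.08), Ciita (0.0974), Xcr1 (0.0796), Zbtb46 (0.139) and Clec9a (0). For these genes a fall of the size at the control step could not be seen. Between septic proNeu1 and septic Ly6C- GMP only H2-DMa was called, at 17.2 ± 3.45 CPM in septic proNeu1 and 40.4 ± 6.68 CPM in septic Ly6C- GMP (log2 fold change -1.20 ± 0.19, adjusted p = 0.000441), with 1.29% of all genes called and 0.456% called lower. Between septic proNeu2 and septic proNeu1 edgeR called 0 of the 10, with 0 at an unadjusted p under 0.05 and 0 called by DESeq2, and 0.72% of all genes were called. Between septic preNeu and septic proNeu2, with 16.9% of all genes called and 8.51% called higher, H2-Eb1 was higher on 71 counts in septic preNeu and 16 in septic proNeu2 (2.61 ± 0.82, adjusted p = 0.0265). That call was lost in 6 alternatives, among them the omission of septic proNeu2 replicate 1 or 2 and of septic preNeu replicate 1 or 3 (adjusted p 0.0571 to 0.122 over the 6).

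On the monocyte path the class II genes fell at the first step and were high again at the last, and the DM genes were called at none of the 3 steps. In cMoP against control Ly6C- GMP, edgeR called 8 of the 10 genes lower, against 17.2% of all genes called and 7.96% called lower, with a median log2 fold change of -6.34, against -0.003 over all genes. This comparison shares its Ly6C- GMP libraries with that of proNeu1. H2-Ab1 averaged 4.91 ± 0.540 CPM in cMoP and 1377 ± 229 CPM in Ly6C- GMP (log2 fold change -8.09 ± 0.45, adjusted p = 2.18e-13). Cd74 averaged 3.34 ± 1.00 CPM in cMoP and 1273 ± 246 CPM in Ly6C- GMP (-8.52 ± 0.68, adjusted p = 2.63e-10). H2-Aa (-8.07 ± 0.78, adjusted p = 9.95e-09), H2-Eb1 (-8.00 ± 0.80, adjusted p = 1.98e-08) and Ciita (-7.10 ± 1.51, adjusted p = 0.00111) were lower as well. Cd74 was thus lower in cMoP, the first monocyte stage, than in any neutrophil-path control library. Zbtb46 averaged 0.305 ± 0.221 CPM in cMoP and 13.2 ± 6.23 CPM in Ly6C- GMP (-5.36 ± 1.14, adjusted p = 0.00106). Xcr1 (-5.41 ± 1.77, adjusted p = 0.0366) and Clec9a (-5.58 ± 1.62, adjusted p = 0.019) were also called, but Xcr1 lost its call without any 1 of the 6 libraries compared (adjusted p 0.0543 to 0.123) and Clec9a without any 1 of the cMoP libraries (0.0586 to 0.0846). H2-DMa, at 183 ± 14.3 CPM in cMoP and 145 ± 6.88 CPM in Ly6C- GMP, and H2-DMb1, at 94.5 ± 7.27 CPM in cMoP and 126 ± 17.0 CPM in Ly6C- GMP, did not pass the test (0.37 ± 0.18 and -0.38 ± 0.19, adjusted p = 0.187 and 0.171). When only the cMoP and Ly6C- GMP libraries were fitted, H2-DMa was called higher (adjusted p = 0.0186).

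In TpMo against cMoP, with 18.1% of all genes called and 9.52% called higher, Cd74 was the 1 gene of the 10 called. It averaged 14.6 ± 3.90 CPM in TpMo and 3.34 ± 1.00 CPM in cMoP (log2 fold change 2.32 ± 0.55, adjusted p = 0.00304). H2-Ab1 averaged 5.98 ± 1.15 CPM in TpMo and 4.91 ± 0.540 CPM in cMoP, with ranges that overlapped. The invariant chain transcript thus passed the test at a step where those of the class II chains did not; whether they differed from it in change was not tested. Ciita had 0.232, 3.16 and 0.0923 CPM in TpMo and 0.578, 0 and 0 CPM in cMoP (2.65 ± 1.32, adjusted p = 0.188), and was called higher without cMoP replicate 1 (adjusted p = 0.0359). When only the TpMo and cMoP libraries were fitted, H2-DMa, H2-DMb1 and Clec9a were called higher too (adjusted p = 0.0146, 0.0171 and 0.0258).

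In the Ly6Chi monocyte against TpMo, edgeR called 5 of the 10 genes, all higher, where 20.9% of all genes were called and 7.59% were called higher. The median log2 fold change of the 10 was 2.81, against 0 over all genes. H2-Ab1 averaged 152 ± 72.5 CPM in the Ly6Chi monocyte and 5.98 ± 1.15 CPM in TpMo, a ratio of 25.4 (log2 fold change 4.69 ± 0.39, adjusted p = 1.3e-10). H2-Aa averaged 76.4 ± 48.0 CPM in the Ly6Chi monocyte and 1.41 ± 0.997 CPM in TpMo (5.83 ± 0.71, adjusted p = 2.9e-07), and H2-Eb1 44.9 ± 26.1 CPM in the Ly6Chi monocyte and 1.43 ± 0.401 CPM in TpMo (5.00 ± 0.70, adjusted p = 2.4e-06). Cd74 averaged 320 ± 183 CPM in the Ly6Chi monocyte and 14.6 ± 3.90 CPM in TpMo (4.48 ± 0.56, adjusted p = 3.72e-07). The 4 classical genes were thus called together in the most mature monocyte population. Ciita averaged 14.4 ± 7.79 CPM in the Ly6Chi monocyte and 1.16 ± 1.73 CPM in TpMo (3.65 ± 1.26, adjusted p = 0.0384). The Ciita call was lost without TpMo replicate 1 or 3 and without Ly6Chi monocyte replicate 1 or 2, and also with no filter, without the shallow libraries and with only the libraries compared (adjusted p 0.055 to 0.15 over the 7 alternatives), and all 5 calls held without Ly6Chi monocyte replicate 3, the lowest for the class II genes. H2-DMa, at 278 ± 22.4 CPM in the Ly6Chi monocyte and 217 ± 25.1 CPM in TpMo, was not called (0.35 ± 0.18, adjusted p = 0.192), nor was H2-DMb1, at 139 ± 2.00 CPM in the Ly6Chi monocyte and 112 ± 6 CPM in TpMo (0.32 ± 0.19, adjusted p = 0.249). Clec9a had 0, 3.65 and 0 CPM in the Ly6Chi monocyte and 1.22, 4.28 and 3.51 CPM in TpMo, and was not called (adjusted p = 0.538). Without Ly6Chi monocyte replicate 2, a shallow library, Clec9a was called lower (adjusted p = 0.00455).

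**Figure D3:**
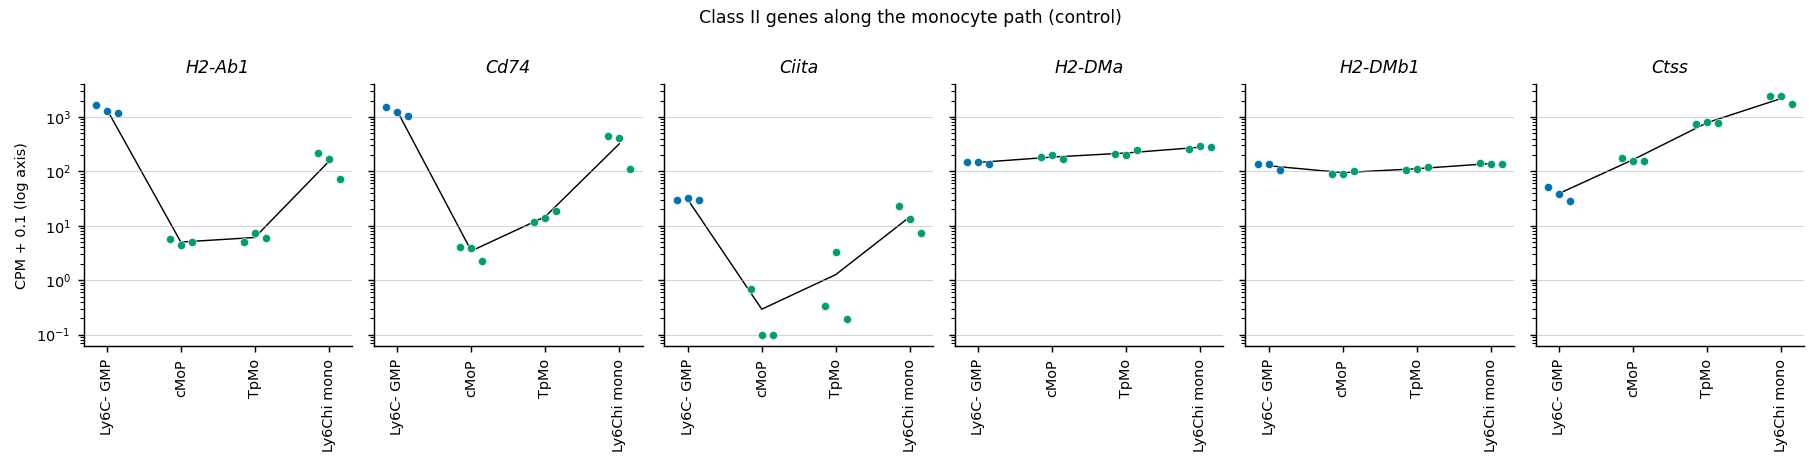
CPM (log axis) of H2-Ab1, Cd74, Ciita, H2-DMa, H2-DMb1 and Ctss along control Ly6C- GMP, cMoP, TpMo and the Ly6Chi monocyte; points are libraries and the line joins the means. H2-Ab1 averages 1377 CPM, 4.91 CPM, 5.98 CPM and 152 CPM along these stages, whereas H2-DMa stays between 138 and 295 CPM in every library.

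All 10 transcripts were lower in Ly6C- GMP after sepsis, the class II and dendritic ones by the widest margin. In septic against control Ly6C- GMP, edgeR called all 10 genes lower, where 17.7% of all genes were called and 7.42% were called lower, and the CPM ranges of the 2 arms did not overlap for any of the 10, nor for 37.7% of all genes (22.3% lower in sepsis). Their median log2 fold change was -7.42, against -0.007 over all genes. The control libraries are those compared with proNeu1 and cMoP above. H2-Ab1 stood at 11.8, 13.3 and 8.85 CPM in septic Ly6C- GMP, against 1633, 1306 and 1192 CPM in control Ly6C- GMP, a mean 122-fold lower (log2 fold change -6.80 ± 0.42, adjusted p = 5.81e-12). Cd74 stood at 4.30, 3.56 and 2.69 CPM in septic Ly6C- GMP, against 1542, 1220 and 1059 CPM in control Ly6C- GMP, a mean 362-fold lower (-8.37 ± 0.67, adjusted p = 1.16e-09). Each septic Ly6C- GMP library lay within or below the range of the control proNeu1 libraries for both genes. H2-Aa averaged 1.27 ± 0.406 CPM in septic Ly6C- GMP and 315 ± 92.4 CPM in control Ly6C- GMP (-7.81 ± 0.76, adjusted p = 2.92e-08), and H2-Eb1 1.08 ± 0.556 CPM in septic Ly6C- GMP and 157 ± 45.1 CPM in control Ly6C- GMP (-7.04 ± 0.76, adjusted p = 1.43e-07). Ciita stood at 0.0796, 0 and 0.213 CPM in septic Ly6C- GMP, against 29.5, 31.6 and 29.5 CPM in control Ly6C- GMP (-8.02 ± 1.59, adjusted p = 0.000544). In bulk libraries fewer cells of a type and less RNA per cell cannot be told apart.

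The dendritic members were at or near 0 in septic Ly6C- GMP. Xcr1 had 0.239, 0 and 0 CPM there, against 35.8, 27.8 and 16.5 CPM in control Ly6C- GMP (log2 fold change -8.16 ± 2.06, adjusted p = 0.00645). Clec9a had 0 counts in septic Ly6C- GMP, at least 565-fold lower than in control Ly6C- GMP with a floor of 3 counts over the group (adjusted p = 0.000989). Zbtb46, at 0.239, 0 and 0.177 CPM in septic Ly6C- GMP and 19.2, 13.8 and 6.73 CPM in control Ly6C- GMP, was lower too (-6.36 ± 1.20, adjusted p = 0.000305). The DM genes fell by a smaller factor and stayed detected. H2-DMa stood at 47.7, 34.6 and 38.9 CPM in septic Ly6C- GMP, against 151, 147 and 138 CPM in control Ly6C- GMP, a mean 3.6-fold lower (-1.71 ± 0.19, adjusted p = 2.31e-07). H2-DMb1 stood at 33, 28.9 and 18.5 CPM in septic Ly6C- GMP, against 136, 136 and 107 CPM in control Ly6C- GMP, a mean 4.72-fold lower (-2.11 ± 0.19, adjusted p = 9.25e-09). The 10 calls held in every alternative and every omission of 1 library that was run.

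In the later neutrophil-path populations, fewer of the genes differed with sepsis. In proNeu1, 4 of the 10 were called, all lower, against 15.6% of all genes called and 7.3% called lower, with a median log2 fold change of -1.16 over the 10 and -0.028 over all genes. Cd74 averaged 3.26 ± 1.09 CPM in septic proNeu1 and 53.5 ± 14.9 CPM in control proNeu1 (log2 fold change -3.97 ± 0.59, adjusted p = 2.44e-05), and H2-DMa 17.2 ± 3.45 CPM in septic proNeu1 and 62.6 ± 11.1 CPM in control proNeu1 (-1.82 ± 0.19, adjusted p = 2.96e-07). H2-DMb1 averaged 18.3 ± 3.92 CPM in septic proNeu1 and 56.4 ± 3.71 CPM in control proNeu1 (-1.57 ± 0.19, adjusted p = 2.09e-06). Zbtb46 was called as well (-3.19 ± 1.05, adjusted p = 0.0367), but not in 5 alternatives, among them the omission of any septic proNeu1 library or of control proNeu1 replicate 2 (adjusted p 0.0689 to 0.156 over the 5). H2-Ab1, at 8.28 ± 4.38 CPM in septic proNeu1 and 14.8 ± 1.93 CPM in control proNeu1, was not called (-0.76 ± 0.36, adjusted p = 0.157), except without septic proNeu1 replicate 2 (adjusted p = 0.0306).

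In proNeu2, where 17% of all genes were called and 7.57% were called lower, 3 of the 10 were called, all lower. H2-DMa averaged 15.1 ± 2.79 CPM in septic proNeu2 and 33 ± 2.66 CPM in control proNeu2 (log2 fold change -1.11 ± 0.19, adjusted p = 0.000114), and H2-DMb1 16.6 ± 0.350 CPM in septic proNeu2 and 39.9 ± 4.99 CPM in control proNeu2 (-1.25 ± 0.19, adjusted p = 2.84e-05). Cd74 had 0.178, 1.38 and 5.85 CPM in septic proNeu2, against 8.58, 8.71 and 10.6 CPM in control proNeu2 (-1.86 ± 0.57, adjusted p = 0.0225). That call was lost without septic proNeu2 replicate 1 (adjusted p = 0.105) or 2 (0.117), without control proNeu2 replicate 2 (0.0517) or 3 (0.0669), and in 2 other alternatives. In preNeu, where 11.8% of all genes were called and 7.57% were called higher, H2-DMa was the 1 gene called and stood higher, at 10.4, 14 and 14.9 CPM in septic preNeu, against 4.66, 7.41 and 11.2 CPM in control preNeu (0.75 ± 0.21, adjusted p = 0.0155). The ranges overlapped, and the call was lost with only the libraries compared (adjusted p = 0.229), without control preNeu replicate 1 (0.163) and without septic preNeu replicate 2 (0.0665) or 3 (0.0517).

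The mean of the 4 sepsis effects, for which 37.1% of all genes were called and 17.5% were called lower, was negative and called for 9 of the 10 genes and could not be estimated for Clec9a. Cd74 had a mean log2 fold change of -3.88 ± 0.29 (adjusted p = 2.57e-11). The calls of Ciita (adjusted p = 0.0468) and Xcr1 (0.0428) were lost in most omissions of 1 library (adjusted p up to 0.9999). Whether the sepsis effect differed between the 4 populations was asked by an interaction test, which called 7 of the 10 genes against 6.34% of all genes: Cd74, H2-Aa, H2-Ab1, H2-Eb1, Ciita, H2-DMa and H2-DMb1. The Ciita call was lost in 5 alternatives (adjusted p 0.0562 to 0.0871). H2-Ab1 had the lowest of these p-values (adjusted p = 6.31e-09). Its sepsis effect was -6.80 in Ly6C- GMP, -0.76 in proNeu1 and -0.92 in proNeu2 on the log2 scale, with -0.46 for preNeu. In control proNeu1, proNeu2 and preNeu H2-Aa averaged 2.31, 0.747 and 2.50 CPM and H2-Eb1 2.12, 0.954 and 1.56 CPM. Ciita averaged at most 0.256 CPM there. From such levels a fall of the size in Ly6C- GMP could not be seen. H2-Ab1 averaged 14.8, 12.5 and 8.47 CPM in the same control populations, near its mean of 11.3 CPM in septic Ly6C- GMP. For H2-Aa, H2-Ab1, H2-Eb1 and Ciita the test cannot separate a smaller response from a low control level. The dendritic members were not called for a difference between populations (adjusted p = 0.462 for Xcr1, 0.14 for Clec9a and 0.145 for Zbtb46), although DESeq2 called Clec9a (adjusted p = 0.021) and Zbtb46 (0.0121).

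**Figure D4:**
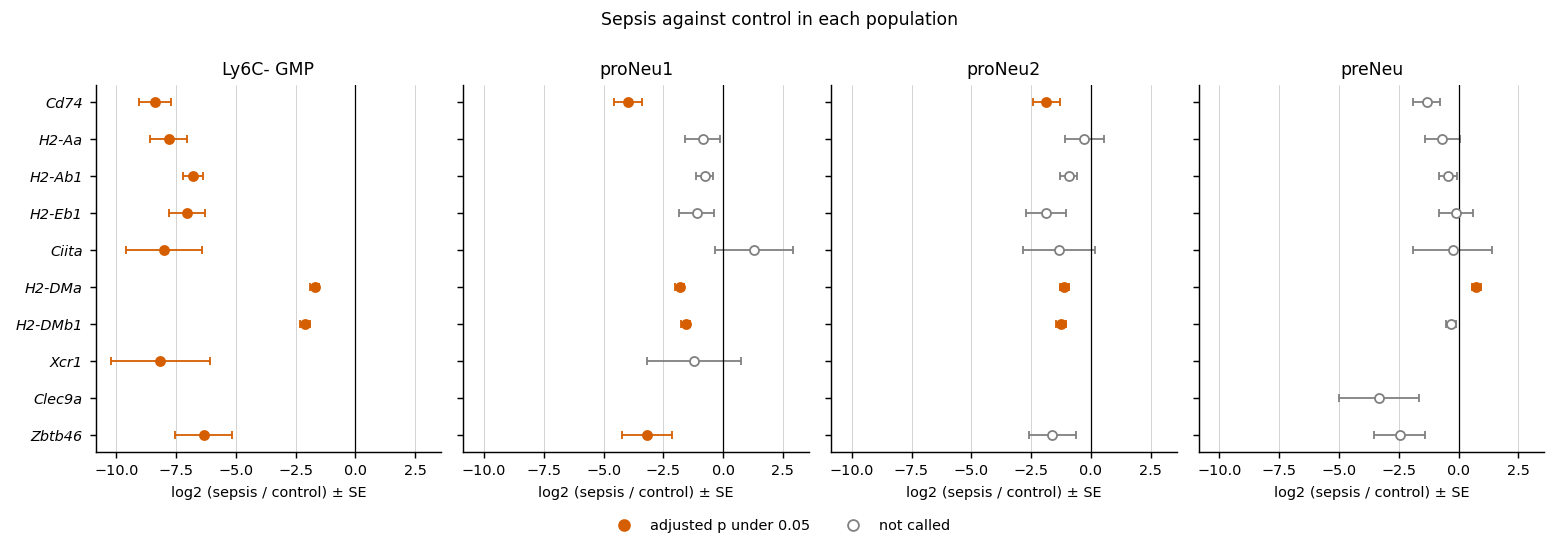
Log2 fold change (septic over control, bars are SE) of the 10 genes in Ly6C- GMP, proNeu1, proNeu2 and preNeu; filled points passed an adjusted p of 0.05, and pairs in which a group has 0 to 3 counts are not drawn. In Ly6C- GMP the effects run from -1.71 (H2-DMa) to -8.37 (Cd74), and in preNeu the 1 filled point is H2-DMa at 0.75.

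Other genes of the pathway were counted in lists. Their counts are read against the shares of all genes called: 2.45% lower in proNeu1 against Ly6C- GMP, 9.22% higher and 7.96% lower in cMoP against Ly6C- GMP, 9.52% higher and 8.56% lower in TpMo against cMoP, 7.59% higher and 13.3% lower in the Ly6Chi monocyte against TpMo, and 10.3% higher and 7.42% lower in septic against control Ly6C- GMP. Of the remaining class II genes, 3 of 6 were tested: H2-DMb2, a second DM beta chain gene, and H2-Oa and H2-Ob, whose products form the DM inhibitor H2-O. In septic against control Ly6C- GMP 2 were lower. H2-Ob averaged 6.20 ± 3.06 CPM in septic Ly6C- GMP and 61.4 ± 15 CPM in control Ly6C- GMP (log2 fold change -3.17 ± 0.91, adjusted p = 0.0151), and H2-DMb2 4.03 ± 1.28 CPM in septic Ly6C- GMP and 11.1 ± 2.25 CPM in control Ly6C- GMP (-1.33 ± 0.41, adjusted p = 0.0246). In proNeu1 against Ly6C- GMP, H2-Ob (4.95 ± 2.41 CPM in proNeu1, -3.53 ± 0.93, adjusted p = 0.0201) and H2-Oa (0.564 ± 0.151 CPM in proNeu1 and 11.6 ± 2.61 CPM in Ly6C- GMP, -4.26 ± 0.93, adjusted p = 0.00389) were lower, and in cMoP against Ly6C- GMP 1 gene was, H2-Ob. None of the 3 was called between the Ly6Chi monocyte and TpMo, the step at which the classical genes were higher.

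Of 7 genes for the DNA-binding factors of class II promoters (the RFX and NF-Y subunits and a CREB-family gene), 0 were called in proNeu1 against Ly6C- GMP. In septic against control Ly6C- GMP 1 was called, and higher: Nfyc, an NF-Y subunit, at 103 ± 12.4 CPM in septic Ly6C- GMP and 69.0 ± 6.96 CPM in control Ly6C- GMP (log2 fold change 0.70 ± 0.15, adjusted p = 0.000985). In the Ly6Chi monocyte against TpMo 4 of the 7 were called, all lower, among them Nfyb, at 26.2 ± 8.04 CPM in the Ly6Chi monocyte and 79.9 ± 10.01 CPM in TpMo (-1.63 ± 0.21, adjusted p = 6.1e-07), and Nfya (-1.08 ± 0.31, adjusted p = 0.0117). H2-Aa and H2-Eb1, whose promoters are printed above, stood higher in the same comparison. Rfx5, which was not called, averaged 9.44 ± 0.967 CPM in the Ly6Chi monocyte and 2.98 ± 3.94 CPM in TpMo. The part of these factors in the class II levels was not tested. In cMoP against Ly6C- GMP Nfyc was higher, and in TpMo against cMoP Nfyb and Nfyc were.

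All 12 genes for enzymes, ubiquitin ligases and costimulators that act with class II molecules were tested. Along the monocyte path 5 were higher and 1 lower in cMoP against Ly6C- GMP (9.22% of all genes higher and 7.96% lower), 7 higher and 1 lower in TpMo against cMoP (9.52% and 8.56%, median log2 fold change 2.03, against 0 over all genes), and 4 higher in the Ly6Chi monocyte against TpMo (7.59%). Calls were as many at the last neutrophil step, with 7 higher and none lower in preNeu against proNeu2 (13.1% of all genes higher) and 8 higher and none lower in septic preNeu against septic proNeu2 (8.51%). March1, a ligase that sends class II molecules for degradation, averaged 16.6 ± 6.81 CPM in preNeu and 0.923 ± 0.952 CPM in proNeu2 (4.44 ± 0.83, adjusted p = 0.000122). Ctss, the cathepsin that trims the invariant chain, averaged 2179 ± 416 CPM in the Ly6Chi monocyte and 783 ± 27.3 CPM in TpMo (1.49 ± 0.36, adjusted p = 0.0028). It averaged 164 ± 13.2 CPM in cMoP and 39.1 ± 11.1 CPM in Ly6C- GMP (2.11 ± 0.37, adjusted p = 0.00013), so its transcript was already higher at stages where that of its substrate Cd74 was lower. March1 averaged 141 ± 7.80 CPM in TpMo and 9.91 ± 2.96 CPM in cMoP (4.03 ± 0.74, adjusted p = 0.00018). In septic against control Ly6C- GMP, 2 were higher and 4 lower (10.3% and 7.42% of all genes). The cathepsin gene Ctsl averaged 52.4 ± 3.14 CPM in septic Ly6C- GMP and 10.3 ± 2.24 CPM in control Ly6C- GMP (2.47 ± 0.33, adjusted p = 4.16e-06), and Cd83, a dendritic cell maturation marker, 0.454 ± 0.120 CPM in septic Ly6C- GMP and 18.3 ± 4.56 CPM in control Ly6C- GMP (-5.18 ± 1.58, adjusted p = 0.0218). In septic preNeu, 4 were higher than in control preNeu and none lower, where 7.57% of all genes were called higher. Ctss averaged 87.0 ± 26.9 CPM in septic preNeu and 8.79 ± 2.41 CPM in control preNeu (3.29 ± 0.41, adjusted p = 2.17e-06). The monocyte gene Fn1 averaged 388 CPM in septic preNeu, 4.86 CPM in septic proNeu2 and 3.84 CPM in control preNeu. Csf1r averaged 75.6, 25.5 and 13.5 CPM in these populations. Ly6c2 averaged 801, 698 and 883 CPM, and S100a4 had no count in preNeu of either arm. The part of monocyte transcripts in these preNeu calls was not tested.

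The class I pathway and the interferon-gamma pathway, which can induce Ciita, were counted for comparison. Of 13 class I genes, 5 were lower in septic than in control Ly6C- GMP and none higher, where 7.42% of all genes were called lower, with a median log2 fold change of -0.11, against -0.007 over all genes. Tapbp, the tapasin gene, averaged 164 ± 29.5 CPM in septic Ly6C- GMP and 371 ± 26.7 CPM in control Ly6C- GMP (-1.05 ± 0.15, adjusted p = 6.39e-06). In proNeu1 against Ly6C- GMP 0 of the 13 were called. Of 10 interferon-gamma genes 9 were tested, and Ifng itself had no count in 10 of the 11 populations. In the Ly6Chi monocyte against TpMo 7 were higher, among them Irf1, at 132 ± 14.8 CPM in the Ly6Chi monocyte and 64.8 ± 3.87 CPM in TpMo (1.02 ± 0.17, adjusted p = 3.23e-05). In septic against control Ly6C- GMP 2 were lower, among them the kinase gene Jak2 (17.7 ± 2.94 CPM in septic Ly6C- GMP and 52.6 ± 6.95 CPM in control Ly6C- GMP, -1.44 ± 0.21, adjusted p = 1.46e-05).

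Further conventional dendritic genes were lower in septic Ly6C- GMP. Of 15 shared and type 1 dendritic genes 14 were tested, and 8 were lower and none higher in septic than in control Ly6C- GMP, with a median log2 fold change of -2.59. Tlr3, an endosomal receptor for double-stranded RNA, averaged 0.177 ± 0.307 CPM in septic Ly6C- GMP and 21.3 ± 10.6 CPM in control Ly6C- GMP (-6.69 ± 1.78, adjusted p = 0.00882), and Cadm1, an adhesion gene, 0.0265 ± 0.0460 CPM in septic Ly6C- GMP and 13.6 ± 4.64 CPM in control Ly6C- GMP (-8.58 ± 2.10, adjusted p = 0.00585). Without Cst3, Naaa and Wdfy4, the rest of the list summed to 42.4 to 58.0 CPM in septic Ly6C- GMP and 158 to 236 CPM in control Ly6C- GMP. The sum with these genes is not reported here. Fscn1 was at 0 in the septic and at most 0.632 CPM in the control Ly6C- GMP libraries. In proNeu1 against Ly6C- GMP 8 were lower and none higher (median -3.28), and in cMoP against Ly6C- GMP 7 were lower and none higher (median -1.95). In the Ly6Chi monocyte against TpMo, Flt3 was the 1 gene called, at 53.5 ± 31.2 CPM in the Ly6Chi monocyte and 9.75 ± 4.48 CPM in TpMo (2.47 ± 0.66, adjusted p = 0.00688). The part of dendritic cells in the class II values was not tested.

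Transcription factors of dendritic development gave no single direction. Of 12 tested, 1 was higher and 3 lower in septic than in control Ly6C- GMP: Nfil3 averaged 30.4 ± 11.2 CPM in septic Ly6C- GMP and 3.92 ± 0.371 CPM in control Ly6C- GMP (log2 fold change 3.08 ± 0.45, adjusted p = 1.24e-05), and Id2 14.7 ± 6.84 CPM in septic Ly6C- GMP and 42.1 ± 9.98 CPM in control Ly6C- GMP (-1.37 ± 0.26, adjusted p = 0.00032). In cMoP against Ly6C- GMP 3 were higher and 3 lower, with Irf8, a factor of monocyte and type 1 dendritic development, at 1711 ± 84.4 CPM in cMoP and 225 ± 46.6 CPM in Ly6C- GMP (2.97 ± 0.61, adjusted p = 0.000825). Of 7 type 2 dendritic markers 1 was higher and 1 lower in sepsis, and the list summed to 155 to 208 CPM in septic Ly6C- GMP and 106 to 137 CPM in control Ly6C- GMP, a sum in which Sirpa, also a myeloid gene, takes the larger share. Cd209a, a type 2 and monocyte-derived dendritic marker, was higher in the Ly6Chi monocyte, at 51.9 ± 8.98 CPM, than in TpMo, at 4.07 ± 2.03 CPM (3.66 ± 1.17, adjusted p = 0.0252). Of 10 plasmacytoid dendritic genes 6 were tested, and Tcf4 was the 1 called in septic against control Ly6C- GMP, where it was lower (-0.74 ± 0.22, adjusted p = 0.0163). The defining plasmacytoid gene Siglech was at most 0.491 CPM in any library.

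Markers of other cell types also differed between septic and control Ly6C- GMP. Of 13 B-lineage genes 11 were tested and 4 were lower in septic Ly6C- GMP, among them Jchain, at 0.851 ± 0.873 CPM in septic Ly6C- GMP and 156 ± 10.9 CPM in control Ly6C- GMP (log2 fold change -7.38 ± 1.28, adjusted p = 0.000112). The B-lineage list summed to 43.9 to 88.1 CPM in septic Ly6C- GMP and 915 to 1151 CPM in control Ly6C- GMP. Without Ighm, Igkc and Jchain it summed to 37.3 to 39.3 CPM in septic Ly6C- GMP and 61.7 to 68.8 CPM in control Ly6C- GMP. Cd79b takes the larger share of this remainder, with means of 36.5 CPM in septic and 55.1 CPM in control Ly6C- GMP. It also averaged 48.6 CPM in control proNeu1 and 50.3 CPM in cMoP. The defining B-cell gene Pax5 was at 0 in septic Ly6C- GMP and at most 0.462 CPM in control Ly6C- GMP. Of 11 macrophage genes 4 were lower and none higher, with sums of 87.5 to 138 CPM in septic Ly6C- GMP and 166 to 245 CPM in control Ly6C- GMP. Slc40a1 and Vcam1 take the larger share of these sums, with means of 99.5 and 65.6 CPM in control Ly6C- GMP. Both were higher in control proNeu2, at 467 and 626 CPM, so the sums are not specific to macrophages. Basophil and mast cell genes showed the widest gap, with 6 of the 7 tested lower in sepsis and sums of 285 to 971 CPM in septic Ly6C- GMP and 8253 to 12227 CPM in control Ly6C- GMP. Of 8 eosinophil genes 1 was higher and none lower, with sums of 2467 to 4462 CPM in septic Ly6C- GMP and 4646 to 8600 CPM in control Ly6C- GMP. Of 8 T and NK genes 3 were tested and 1, Nkg7, was lower, and Cd3e had no count in any population. Nkg7 averaged 984 CPM in control proNeu1 and 1381 CPM in control proNeu2, above the 745 CPM of control Ly6C- GMP. Of the 8 monocyte genes 1 was higher and 1 lower, and of the 10 neutrophil genes 2 were higher and 3 lower. The part of these cell types in the class II values was not tested.

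Over the 11 population means, on the scale of log2(CPM + 1), the genes outside the set whose profile was most like the mean profile of the 4 classical genes were Pld3 (Pearson r = 0.973), Cd36 (0.961), Tlr3 (0.957), Ifi205 (0.921) and Apoe (0.909), of 8422 genes ranked. Pld3, an endolysosomal exonuclease gene, averaged 44.1 CPM in the Ly6Chi monocyte, 61.6 CPM in control Ly6C- GMP and 19.3 to 25.3 CPM elsewhere. Apoe reversed the order of the classical genes, with 1237 CPM in the Ly6Chi monocyte and 558 CPM in control Ly6C- GMP. Within the set the same measure was 0.968 for Ciita, 0.900 for Xcr1, 0.796 for Clec9a, 0.696 for Zbtb46, 0.621 for H2-DMb1 and 0.526 for H2-DMa. These values describe 11 means, of which 2 populations carry most of the class II signal.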

How the data were processed

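RNA of sorted mouse bone marrow cells was extracted with PicoPure columns, amplified by SMARTSeq v2, tagged with Nextera XT and sequenced as paired reads on an Illumina HiSeq, per the labels' protocols. The authors aligned reads to GRCm38 with STAR and made the deposited table of whole-number read counts with featureCounts, per the submitters' processing notes. Versions, strand setting, treatment of reads with several positions and whether mates were counted separately are not given in the sources used here. Of counts from 1 to 10, 76.2% were even, so halved counts were an alternative. Depth was 5.52 to 39.98 Mcounts (megacounts) a library, and 0 columns of the table were left out.

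The members and gene lists were chosen with earlier results of these data known. Of 54752 feature IDs, 54723 matched a gene symbol. CPM are counts per megacount of the library total, and levels per kilobase use the exon length in the table. All 33 libraries were fitted together in edgeR 4.0.16 (R 4.3.3) with TMM factors, the filterByExpr filter and robust quasi-likelihood tests with 22 residual degrees of freedom. A gene was called where its p, adjusted by Benjamini-Hochberg over 18198 genes for each comparison separately, was under 0.05, and the procedure was tested on simulated data. Standard errors are the log2 fold change over the square root of F. Alternatives were RLE factors, no or a stricter filter, DESeq2 1.42.0, halved counts, only the libraries compared, without the 5 shallow libraries and without each library in turn. Ratios were compared by exact permutation tests over libraries. All members are named, and from each list the 2 genes called with the strongest rise or fall per comparison at 5 CPM or more were eligible. Pax5, Siglech, Cd3e, Nkg7, Ddx3y, Xist, Irf4, Kit, Cd34, Ly6c2, Fcgr3, Csf1r, Elane and Rfx5 are named beside them, as markers or for comparison. So are Fn1, S100a4, Slc40a1, Vcam1 and Cd79b. Some list genes are not reported here. Profile likeness was ranked among tested genes at 20 CPM or more. Counting intervals and floors cover counting error only. The libraries are described as biological replicates; which animals or pools they came from is not stated, so p-values measure the spread between these libraries. Promoter sequences are RefSeq windows of GRCm38.p6.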

Additional observations from a re-analysis of the deposited data

Results flagged for a closer look

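The sepsis effect differed between Ly6C- GMP, proNeu1, proNeu2 and preNeu for 7 of the 10 genes, by an interaction term tested with edgeR's quasi-likelihood F test and Benjamini-Hochberg adjustment over all genes. The adjusted p was 6.31e-09 for H2-Ab1, 1.25e-06 for H2-DMa, 3.15e-06 for Cd74, 1.32e-05 for H2-Aa, 9.69e-05 for H2-Eb1, 0.000597 for H2-DMb1 and 0.0259 for Ciita. The Ciita call was lost with no filter on low counts (adjusted p = 0.0562), without the shallow libraries (0.0644) and in 3 omissions of 1 library (0.0677 to 0.0871). The class II chains and Ciita were called lower in septic Ly6C- GMP and were not called by edgeR in the other 3 populations. In septic proNeu2 DESeq2 called H2-Ab1 (adjusted p = 0.0341) and H2-Eb1 (0.0458) lower, as edgeR did for H2-Ab1 (0.0499) and H2-Eb1 (0.0425) in 1 omission of a library each, and H2-Ab1 was called in septic proNeu1 without its replicate 2 (0.0306). In Ly6C- GMP H2-Aa had a log2 fold change of -7.81 and H2-Eb1 of -7.04. Cd74 had effects of -8.37 in Ly6C- GMP, -3.97 in proNeu1 and -1.86 in proNeu2. H2-DMa had 0.75 in preNeu, a call lost with only the libraries compared (adjusted p = 0.229) and in 3 omissions of 1 library (0.0517 to 0.163) and with ranges that overlapped, after -1.71, -1.82 and -1.11 in the 3 earlier ones, and H2-DMb1 had -2.11, -1.57 and -1.25 in those 3. In proNeu1, proNeu2 and preNeu, Ciita was at most 0.256 CPM, H2-Aa at most 2.50 CPM and H2-Eb1 at most 2.12 CPM on average in the controls. For these genes a fall of the size in Ly6C- GMP could not be seen there. H2-Ab1 averaged 14.8, 12.5 and 8.47 CPM in these controls, near its mean of 11.3 CPM in septic Ly6C- GMP. For H2-Ab1 too, a smaller response and a low control level cannot be told apart.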

How the results depend on the processing

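Of 2215 results for single genes under an alternative, 2102 kept their direction and their side of the threshold, 95 lost a call, 18 gained one and 0 reversed. With edgeR and only the libraries compared, calls numbered 1 in proNeu2 against proNeu1 (2 in the fit of all libraries), 4 in TpMo against cMoP (1) and 0 in septic against control preNeu (1). DESeq2 called 2 in TpMo against cMoP, 5 in septic against control proNeu2 (3 by edgeR) and 2 in septic against control preNeu. Septic preNeu against septic proNeu2 gave 0 with no filter and 0 without the 5 shallow libraries (1 otherwise). The cause was not tested. With each library left out in turn, calls numbered 8 in every omission for proNeu1 against Ly6C- GMP, 1 to 2 for proNeu2 against proNeu1, 2 to 3 for preNeu against proNeu2, 6 to 7 for cMoP against Ly6C- GMP, 1 to 2 for TpMo against cMoP and 4 to 5 for the Ly6Chi monocyte against TpMo. Along the septic stages they numbered 1, 0 and 0 to 2. For septic against control they were 10 in Ly6C- GMP, 3 to 4 in proNeu1, 2 to 4 in proNeu2 and 0 to 1 in preNeu, 7 to 9 for the mean effect and 6 to 7 for the interaction. TMM scaling moved 8 of 110 mean levels by more than 1 SD. Outside control Ly6C- GMP, Xcr1 rested on 0 to 56 counts over the 3 libraries of a population, Clec9a on 0 to 189 and Zbtb46 on 11 to 310. No paired analysis was possible because the labels give no replicate numbers shared between groups.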

Other observations

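H2-Ea-ps, the H2-E alpha chain pseudogene, had no count in any of the 11 populations, although H2-Eb1, which encodes the beta chain of H2-E, averaged 44.9 CPM in the Ly6Chi monocyte and 157 CPM in control Ly6C- GMP.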
